A study of Bos taurus with 10 samples.

Results

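The miR-181 family comprises 4 bovine miRNA names, bta-miR-181a, bta-miR-181b, bta-miR-181c and bta-miR-181d (written without the species prefix below), taken by name from both miRNA tables of a study of bull sperm. Each table lists 978 miRNAs, and all 4 members were listed once in each, without an arm suffix. Small RNA from sperm, a bulk sample in which fewer cells of a type and less RNA per cell cannot be told apart, was sequenced in 10 samples of Bos taurus, with no treatment beyond collection. The question was which small RNAs go with a bull's own fertility and which with that of its daughters. High bull fertility was represented by 3 samples and low bull fertility by 3, and high associated daughter fertility by 3 and low by 3. A pair of samples entered both comparisons: both are labelled high for bull fertility, 1 of them is labelled high and the other low for daughter fertility. Whether each sample is a different animal is not stated, and p-values therefore measure the spread between samples, which may be technical. Neither the age of the bulls nor how fertility was scored is given in the labels.

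miRNAs are short RNAs that guide Argonaute proteins to partly complementary messenger RNAs and lower their output. Members of the miR-181 family share the seed, the stretch near the 5′ end that sets target choice, and differ from each other by only a few bases. The family is best known from lymphoid cells, brain and muscle of mouse and human. miR-181a tunes T cell receptor sensitivity in mouse, miR-181b restrains NF-kB signalling in mouse endothelium, and miR-181c acts on a mitochondrial messenger RNA in rat heart. Less is known of miR-181d, the neighbour of miR-181c.

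In the RefSeq annotation of the ARS-UCD2.0 assembly, 6 genes carry the family's names, and they stand in neighbouring pairs. MIR181C neighbours MIR181D, and both lie within the span of NANOS3, which encodes an RNA-binding protein required by early germ cells in mouse. MIR181A-2 neighbours MIR181B-2 within the span of NR6A1, the germ cell nuclear factor. MIR181A-1 neighbours MIR181B-1 outside any annotated gene span. Mature miR-181a and miR-181b can thus each come from a pair of genes, which their read numbers cannot separate. The sources used here do not state how reads that fit several near-identical members were counted, and the split between members is uncertain to that extent.

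Values for single libraries were worked back from the authors' deposited tables. Each deposited mean is a sum of whole reads, each read weighted by the inverse of its library's size factor (relative depth). A few rows with low means, picked by trial, fixed what 1 read was worth in each of the 6 libraries of a table. With these values all 34 rows with a mean under 2 of the bull fertility table and all 32 of the daughter fertility table, those few included, came out as whole reads within 1e-11. For every member exactly 1 set of whole reads in each table gave back the deposited mean and log2 fold change, with fold changes off by at most 2.8e-06. The standard error (SE) set the dispersion of each fit and is no check of its own. Where other sets matched the mean, the next best missed the fold change by at least 2.3e-04. Both tables, solved apart, also gave the same reads for all 4 members in the 2 libraries they share.

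Directions needed the same step, since no header says which group stands on top of a fold change. Both shared libraries lay on the side of negative deposited values for bull fertility, and both are labelled high, so a positive deposited value means higher with low bull fertility. Across the daughter fertility table the shared libraries lay on opposite sides, and depth had to decide which is which. By the deposited tsRNA values, the relative depth of the library with both labels high was 0.618. It was 1.39 for the one that is low for daughters only and 0.998 for the third high bull library. In the bull fertility miRNA table the high libraries had 0.704, 1.05 and 1.01, and the one at 0.704 stood on the negative side for daughter fertility. Within the daughter fertility groups the order of depths differed between tsRNA and miRNA values. In the high group the shared library had 0.618 against 0.763 and 0.785 by tsRNA, and 0.619 against 0.440 and 0.879 by miRNA. In the low group the shared library had 1.39 against 0.903 and 2.21 by tsRNA, and 0.923 against 1.85 and 2.36 by miRNA. All fold changes below are turned to high over low. Every direction given for daughter fertility rests on this matching of depths and would turn round if it were wrong.

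Size factors spanned 0.704 to 1.05 in high and 0.681 to 2.11 in low bull fertility libraries. They spanned 0.440 to 0.879 in high and 0.923 to 2.36 in low daughter fertility libraries, ranges that did not overlap. Germ cell miR-34c had a mean normalized count of 1914 for bull and 2442 for daughter fertility in the authors' deposited tables, far above all members of the miR-181 family.

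The family was of middling abundance in sperm, led by miR-181c. Its mean normalized count in the authors' deposited tables was 271.9 for bull fertility (rank 66 of 967 miRNAs with reads) and 289.03 for daughter fertility (rank 86 of 977). For miR-181a the means were 73.9 and 129, at ranks 312 and 228, and for miR-181b 73.6 and 98.1, at ranks 314 and 309. The lowest were those of miR-181d, at 59.97 and 64.1, ranks 389 and 442. Within single libraries, the 4 members together had 216 to 1074 reads. In 9 of 10 libraries miR-181c had the most reads, and in the other, from low daughter fertility, miR-181a did. Fewest reads fell to miR-181d in 5 libraries, to miR-181a in 3 and to miR-181b in 2. A read spans a whole mature miRNA, so these numbers were not divided by length.

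**Figure D1:**
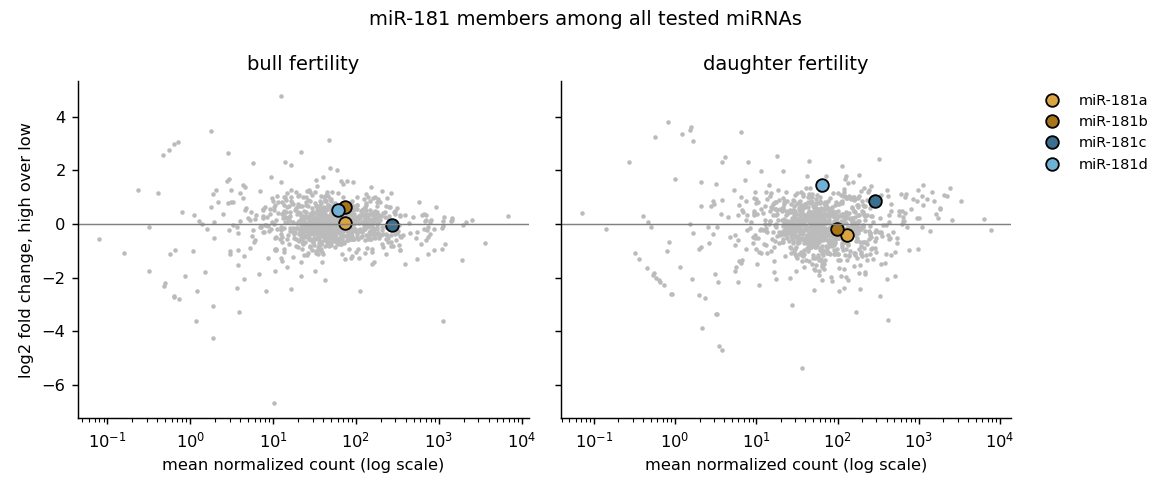
Log2 fold change (high over low fertility) against the mean normalized count on a log scale, for all miRNAs with a p-value (grey) and the 4 members (coloured), for bull fertility (left) and daughter fertility (right). The members lie between 59.97 and 289.03 normalized counts, and miR-181d stands highest among them for daughter fertility at 1.44.

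No member of the family passed the threshold, a Benjamini-Hochberg adjusted p under 0.05 over all miRNAs, for bull fertility, against 0 of 964 miRNAs, which is 0%. Unadjusted p was under 0.05 for 0 of the 4 members and for 4.67% of all miRNAs; with high bull fertility 2.9% were higher at that p and 1.76% lower. The fold change was positive for 3 members and negative for 1, with a median of 0.28 on the log2 scale, where the median of all tested miRNAs was 0.01. With single libraries left out, the signs of miR-181a and miR-181c each turned in 2 of 6 fits, and the median was 0.096 without the deepest low bull fertility library. Groups failed to overlap for 0 of 4 members and for 9.04% of 553 miRNAs with means of 10 to 100 in both tables and recovered reads. Of these 553, 5.06% did so with higher values at high bull fertility. The means of miR-181a and miR-181c do not lie in this range in both tables, so this background covers miR-181b and miR-181d only.

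In the 3 high bull fertility libraries miR-181a had normalized counts of 62.5, 56.3 and 106, against 75.7, 27.5 and 116 in the low bull fertility libraries. The low libraries held both the lowest and the highest value, so the groups overlapped completely. It averaged 74.8 ± 26.8 in high and 73.1 ± 44.3 in low bull fertility libraries (SD, n = 3 each). On the log2 scale the authors' deposited table put the difference at 0.04 (SE 0.58; 95% interval -1.09 to 1.17).

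miR-181b had normalized counts of 106.6, 87.9 and 74.2 with high bull fertility, against 53.5, 75.4 and 44.1 with low bull fertility. Only the highest low library, at 75.4, reached into the range of the high ones, whose lowest was 74.2. The mean was 89.5 ± 16.3 with high and 57.6 ± 16.1 with low bull fertility (SD, n = 3 each). With a log2 fold change of 0.63 (SE 0.46) in the authors' deposited table, it had the smallest unadjusted p of the family there, 0.170 by the authors' DESeq2 Wald test, and an adjusted p of 0.996.

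miR-181c had 335, 199 and 266 normalized counts with high bull fertility, against 158, 236 and 436 with low bull fertility. Here too the low libraries spanned the high ones. It averaged 267 ± 67.9 in high and 277 ± 143 in low bull fertility libraries (SD, n = 3 each), with a log2 fold change of -0.05 (SE 0.48) in the authors' deposited table. The upper bound of its 95% interval was 0.90.

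For miR-181d the counts were 102, 64.2 and 44.7 with high bull fertility, against 19.4, 63.2 and 66.1 with low bull fertility. The single low value belonged to the deepest library of the comparison, with a size factor of 2.11. The averages were 70.4 ± 29.3 in high and 49.5 ± 26.2 in low bull fertility libraries (SD, n = 3 each), for which a log2 fold change of 0.52 (SE 0.59) stands in the authors' deposited table.

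**Figure D2:**
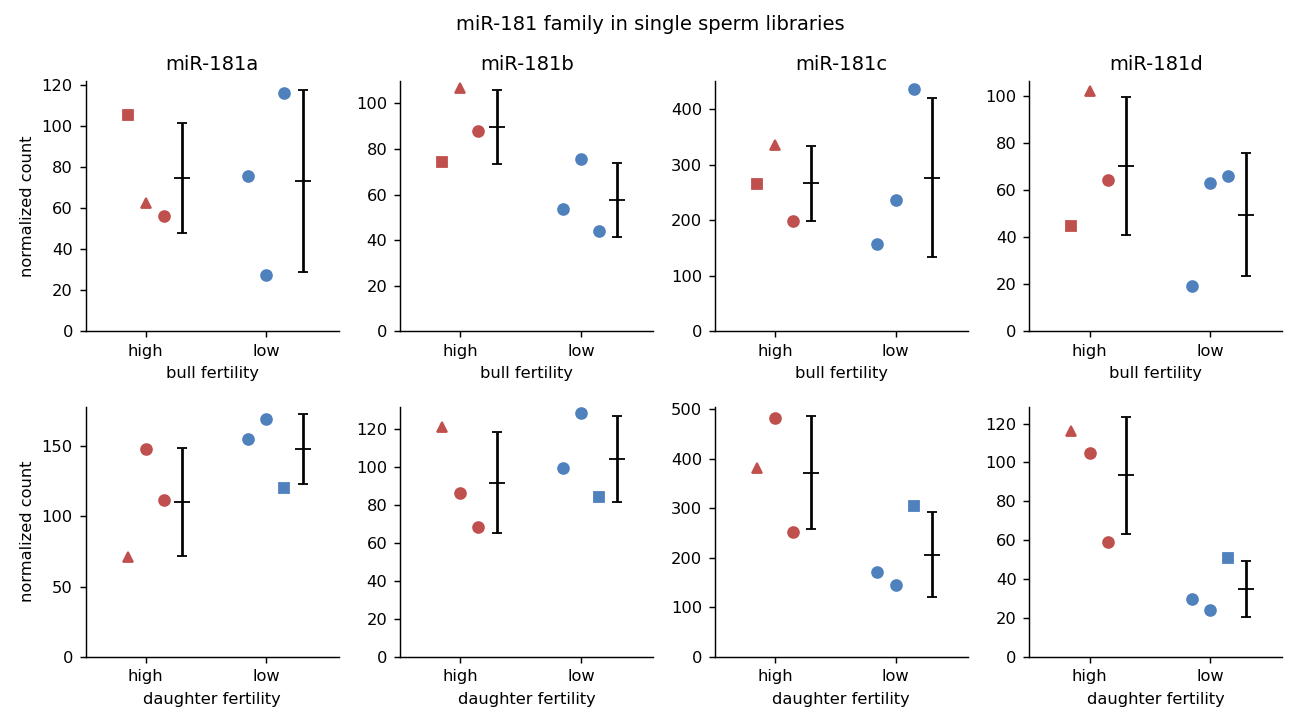
Normalized count of each member in each library (points) beside the group mean and SD (black), with high fertility left and low fertility right, for bull fertility (top) and daughter fertility (bottom). The triangle and the square mark the 2 libraries that enter both comparisons. Of the members, only miR-181d with daughter fertility has groups that do not overlap, 59.1 to 116 with high against 23.8 to 50.9 with low. The same holds for 9.58% of 553 miRNAs with means of 10 to 100 in both tables, in either direction.

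For daughter fertility, the neighbours miR-181c and miR-181d had positive fold changes and the other pair, miR-181a and miR-181b, slightly negative ones. None passed the threshold: 0 of 4 members had an adjusted p under 0.05, against 2 of 951 miRNAs, or 0.21%. At an unadjusted p under 0.05, 1 of 4 members stood, against 6.1% of all miRNAs in either direction, 2.31% higher and 3.79% lower with high daughter fertility. The median of the members was 0.34 on the log2 scale, and that of all tested miRNAs was -0.08.

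miR-181d was the member with the smallest p. It had normalized counts of 116, 105 and 59.1 in the high daughter fertility libraries, from 72, 92 and 26 reads. In the low daughter fertility libraries it had 29.6, 23.8 and 50.9, from 70, 44 and 47 reads. All high libraries lay above all low ones, which makes 1 of 4 members whose groups did not overlap. Among 553 miRNAs with means of 10 to 100 in both tables and recovered reads, groups did not overlap for 9.58% in either direction, and 4.52% were higher with high daughter fertility. The means of miR-181d lie in this range, and those of miR-181a and miR-181c do not in both tables. The nearest miR-181d values were 59.1 with high and 50.9 with low daughter fertility, from the shallowest library of each group. The mean was 93.4 ± 30.2 with high and 34.8 ± 14.3 with low daughter fertility (SD, n = 3 each). In the authors' deposited table its log2 fold change was 1.44 (SE 0.60), a 2.72-fold difference with a 95% interval of 1.20-fold to 6.17-fold. The unadjusted p was 0.0164 and the adjusted p 0.507 by the authors' DESeq2 Wald test, so it did not pass. Without both deep low daughter fertility libraries, at size factors above 1, its log2 fold change was 0.88 (Wald p 0.303 with the dispersion held, and the lone low library assumed to vary like the rest).

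miR-181c had 381, 481 and 252 normalized counts with high daughter fertility, against 170, 145 and 303 with low daughter fertility. The groups overlapped through the lowest high library and the highest low one, which is the low library shared with the bull fertility comparison. Means were 372 ± 115 with high and 206 ± 85.0 with low daughter fertility (SD, n = 3 each). In the authors' deposited table this was 0.85 on the log2 scale (SE 0.55; 95% interval -0.23 to 1.93), at an adjusted p of 0.784 by the authors' DESeq2 Wald test. Without the same deep pair it was 0.30.

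For miR-181a the values were 71.1, 148 and 111 with high daughter fertility, against 155, 169 and 120 with low daughter fertility. Its lowest value came from the shared library with high fertility on both labels, and the groups overlapped. The means were 110 ± 38.5 with high and 148 ± 25.0 with low daughter fertility (SD, n = 3 each), and the log2 fold change in the authors' deposited table was -0.42 (SE 0.54).

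miR-181b had 121, 86.5 and 68.2 with high daughter fertility, against 99.4, 129 and 84.5 with low daughter fertility. Its groups overlapped almost fully, with means of 91.97 ± 26.9 with high and 104 ± 22.6 with low daughter fertility (SD, n = 3 each). The authors' deposited table put its log2 fold change at -0.18 (SE 0.54).

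**Figure D3:**
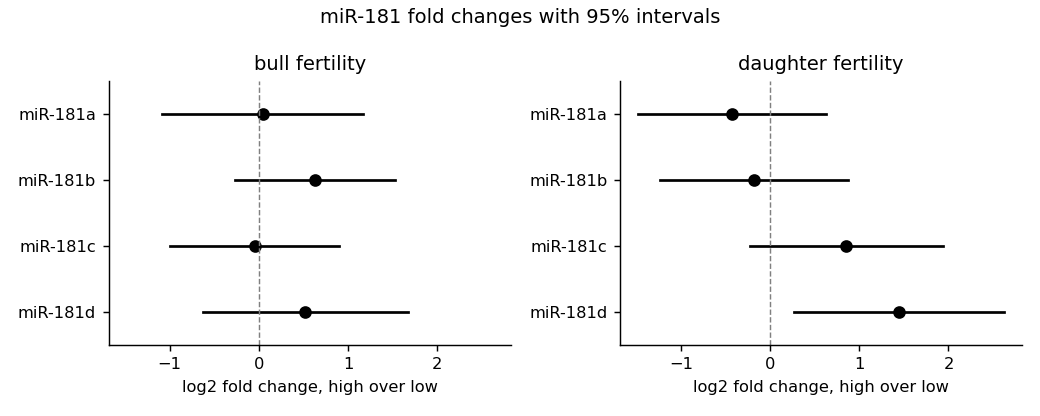
Log2 fold change (high over low fertility) of each member in the authors' deposited tables with its 95% interval (line), for bull fertility (left) and daughter fertility (right). Every interval but that of miR-181d for daughter fertility, 0.26 to 2.62, holds 0; none passed after adjustment over all miRNAs.

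Summed over the 4 members, the family had 502 ± 99.9 normalized counts with high and 457 ± 184 with low bull fertility (SD, n = 3 each). For daughter fertility the sums were 667 ± 166 with high and 493 ± 57.3 with low fertility (SD, n = 3 each). With high daughter fertility the single libraries had 491 to 821, against 454 to 559 with low daughter fertility. The sums overlapped in both comparisons.

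The make-up of the family, its members' shares of miR-181 reads within a library, does not depend on a size factor. miR-181d gave 16.9%, 12.8% and 12.0% of the family's reads in the high daughter fertility libraries, with 95% Wilson intervals of 13.6% to 20.7%, 10.5% to 15.4% and 8.35% to 17.1%. In the low daughter fertility libraries it gave 6.52%, 5.10% and 9.11%, with intervals of 5.19% to 8.15%, 3.82% to 6.78% and 6.92% to 11.9%. These shares did not overlap between groups, though the intervals of the nearest pair of libraries did. Intervals are for counting error only. They treat reads as independent molecules, which reads are not, so they may be too narrow even for that. In all, 9 shares and ratios of reads were looked at in each comparison, after the values had been seen: 4 of 9 did not overlap between the daughter fertility groups and 0 of 9 between the bull fertility groups. All 9 are made from the same 4 read counts and have no background over other miRNAs, so nothing is read from these counts.

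Together miR-181c and miR-181d made up 63.4% to 72.1% of miR-181 reads with high daughter fertility, against 36.2% to 63.4% with low daughter fertility. The closest libraries differed by less than their counting error (63.43% with high and 63.37% with low), so the separation rests on the other libraries. For miR-181a the shares were 10.3% to 22.7% with high and 21.5% to 36.2% with low daughter fertility. Within the neighbouring pair, miR-181c had 3.28 to 4.60 reads per read of miR-181d with high daughter fertility, against 5.76 to 6.09 with low. For each read of miR-181a there were 0.531 to 1.64 reads of miR-181d with high and 0.141 to 0.423 with low daughter fertility. Between bull fertility groups the shares of all members overlapped: miR-181d, for instance, took 9.11% to 16.9% with high and 6.33% to 15.7% with low bull fertility.

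**Figure D4:**
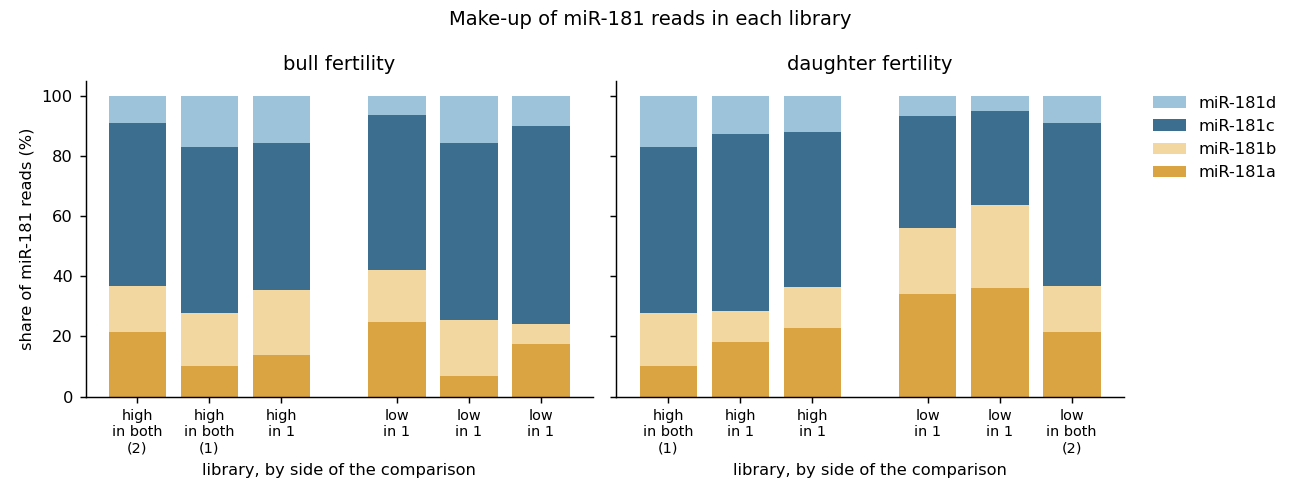
Share of miR-181 reads (%) taken by each member in each library (stacked bars), with high fertility libraries left of low ones, for bull fertility (left) and daughter fertility (right). The 2 libraries marked as in both enter both panels; miR-181d, the top segment, spans 12.0% to 16.9% with high and 5.10% to 9.11% with low daughter fertility.

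The miR-181d and miR-181a shares stood apart in the 3 deepest libraries. The split by depth that follows was made after this had been seen, and it is a description with no test. Of 6 shares and ratios compared, 3 did not overlap. The miR-181b and miR-181c shares and the ratio of miR-181c to miR-181d overlapped. All 6 are made from the same 4 read counts and have no background over other miRNAs, so nothing is read from this count. The 3 deepest of the 10 libraries, at 1.85 to 2.36 on a common scale, belonged to low daughter fertility in 2 cases and to low bull fertility in the third. The other 7 libraries stood at 0.440 to 0.923. Among these 7 the shares followed no steady course with depth. The shallowest, at 0.440, had the highest miR-181a share of the 7, 22.7%, and a miR-181d share of 12.0%. In the 3 deep libraries miR-181d took 5.10% to 6.52% of the family's reads, against 9.11% to 16.9% in the other 7. Likewise miR-181a took 24.7% to 36.2% there, against 6.84% to 22.7%. The low bull fertility library among the deep ones, with 6.33% miR-181d and 24.7% miR-181a, stood apart from the other low bull fertility libraries, at 9.98% and 15.7% miR-181d and 6.84% and 17.5% miR-181a. The shallowest low daughter fertility library, at 0.923, had 9.11% miR-181d. Depth and daughter fertility cannot be told apart between the full groups.

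**Figure D5:**
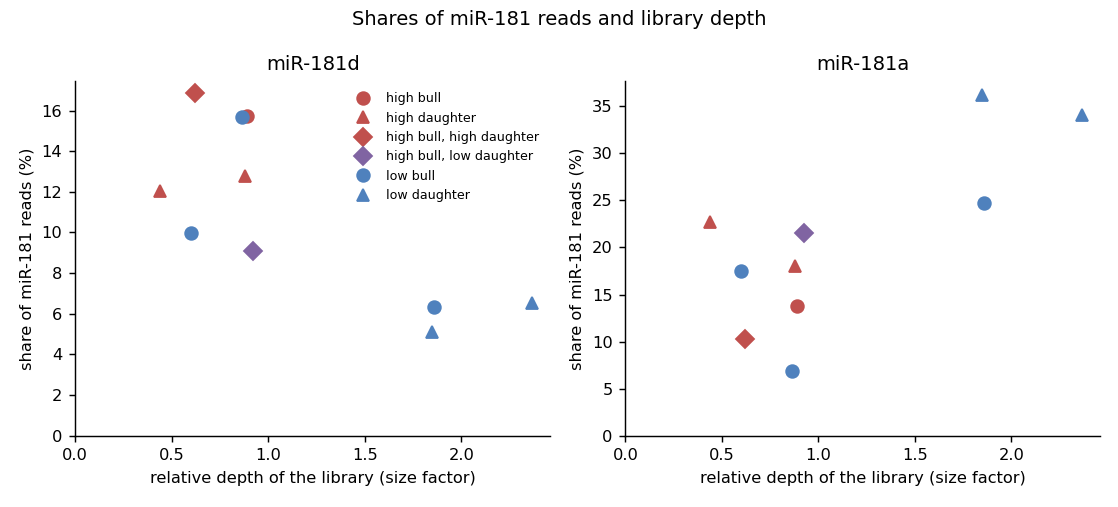
Share of miR-181 reads (%) taken by miR-181d (left) and miR-181a (right) against the relative depth of each of the 10 libraries (size factor, on the scale of the daughter fertility table). Colours and symbols give the side of each library; the 3 deepest libraries have the lowest miR-181d shares and the highest miR-181a shares.

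Other cells in an ejaculate could also carry miR-181, which is abundant in lymphoid cells. All 7 leukocyte markers were measured, with 0 at zero reads in any library, so reads of these miRNAs were present throughout. Their summed normalized counts were 438 to 485 in high and 454 to 514 in low bull fertility libraries. For daughter fertility they were 550.4 to 563 with high, against 567, 1004 and 517 with low, so the wide range rests on 1 library. That library also had the fewest miR-181d normalized counts of the comparison. The deepest low daughter fertility library, also low in miR-181d at 29.6, had a sum of 567. In the deep low bull fertility library, with miR-181d at 19.4, the sum was 514. The list's median log2 fold change was -0.26 by bull fertility, with 2 of 7 higher, and -0.34 by daughter fertility, with 1 of 7 higher in high fertility libraries. Lymphocyte miR-150, its most abundant member by the sum of both tables' means, had log2 fold changes of -0.19 (SE 0.43) by bull and -0.12 (SE 0.47) by daughter fertility, both from the authors' deposited tables. Without passing the threshold, inflammation-linked miR-146a had a value of -2.47 (SE 0.84) in the authors' deposited table on daughter fertility. It was the only 1 of 7 leukocyte markers with an unadjusted p under 0.05 there, against 6.1% of all miRNAs. Its value was seen before it was singled out. By library, miR-146a had normalized counts of 10.9 to 14.2 with high bull fertility, against 65.3, 15.3 and 14.7 with low bull fertility, and of 12.5 to 18.2 with high daughter fertility, against 97.7, 146 and 13.0 with low daughter fertility. Its 3 high values came from the 3 deepest libraries, the same that had the lowest miR-181d and the highest miR-181a shares. The other leukocyte markers were not high in all 3. miR-146b was lowest of its comparison in the deep low bull fertility library, at 8.52, and in the deepest low daughter fertility library, at 20.7. In the other deep low daughter fertility library miR-146b was highest, at 126. The part of these cells in the miR-181 values was not tested.

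Of the other marker lists, germ cell names had a median of -0.08 by bull fertility, 3 of 6 higher with high fertility, and of 0.71 by daughter fertility, 6 of 6 higher. Epithelial names had -0.18 by bull fertility, 0 of 6 higher, and 0.23 by daughter fertility, 4 of 6 higher. The red blood cell names gave 0.18 and 0.12, with 2 of 3 higher each time, and endothelial names 0.49 and -0.29, with 2 and 0 of 2 higher. None of the members of these lists passed the threshold. For bull fertility, unadjusted p was under 0.05 for 0 of them, against 4.67% of all miRNAs. For daughter fertility it was under 0.05 for 1 of 6 epithelial names and 0 of the others, against 6.1% of all miRNAs. Nothing is read from these counts. Their most abundant names gave, for bull and daughter fertility in the authors' deposited tables, -1.34 (SE 0.82) and 1.33 (SE 0.76) for miR-34c, and -0.09 (SE 0.45) and 0.25 (SE 0.57) for epithelial miR-200c. For erythroid miR-486 the authors' deposited tables gave -0.06 (SE 0.49) and 0.12 (SE 0.59), and for endothelial miR-126-3p 0.10 (SE 0.59) and -0.19 (SE 0.68).

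The annotated neighbours of MIR181C and MIR181D include MIR23A, MIR27A and MIR24-2, a cluster known from vascular and blood cells. Mature miRNAs of these names were scarcer than miR-181c. Which genes their reads came from, those of miR-24 included, was not tested. The authors' deposited tables gave miR-23a mean normalized counts of 3.02 for bull and 6.62 for daughter fertility, and miR-24-3p 24.2 and 26.5. In the same order miR-27a-3p had 11.4 and 16.3, and miR-27a-5p 26.7 and 45.2. For daughter fertility, miR-23a stood at 0.54 (SE 1.32) and miR-24-3p at 0.45 (SE 0.66) on the log2 scale of the authors' deposited table, whereas miR-27a-5p stood at -0.87 (SE 0.92) and miR-27a-3p at -1.39 (SE 1.21). The rows named miR-24 without an arm had, in the authors' deposited tables, 0.56 (SE 0.54) by bull and 0.58 (SE 0.64) by daughter fertility. Their mean normalized counts were 57.2 and 63.2, near those of miR-181d, 59.97 and 64.1. Near the MIR181A-1 pair, MIR2285AY is annotated, and the authors' deposited tables list miR-2285ay at 0 for bull fertility and at a mean of 0.460 for daughter fertility.

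Among 854 other miRNAs with a mean of at least 10 in both tables, those with fold changes nearest to miR-181c in the 2 comparisons were miR-2404, miR-25 and miR-380-3p. Their distances were 0.07, 0.08 and 0.08 log2 units. For bull and daughter fertility the authors' deposited tables gave 0.02 (SE 0.66) and 0.86 (SE 0.75) for miR-2404, -0.08 (SE 0.46) and 0.92 (SE 0.67) for miR-25, and 0.02 (SE 0.69) and 0.81 (SE 0.62) for miR-380-3p. With only 2 values compared and SEs larger than the distances, this likeness is a description.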

How the data were processed

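Per the labels' protocols, RNA from sperm came from a miRNeasy Mini Kit column and small RNA libraries from a NEBNext kit. The submitters' processing notes list Trimmomatic 0.39 and DESeq2 1.34.0 with no role. Aligner, genome build, miRNA annotation and counting are not given in the sources used. Per the file headers, which are in DESeq2's form and sit 1 cell left of the values, the deposited miRNA tables hold a signal (a mean of counts divided by size factors), a log2 fold change, scores (its SE and Wald statistic) and p-values, raw and adjusted. Raw p-values readjusted by Benjamini-Hochberg differed from the deposited ones by at most 6.0e-14. The deposited tsRNA table gives a signal per group and was used for depth alone.

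The tables hold the authors' comparisons, so their Wald test is reported in place of the count test planned for counts per sample. Reads were worked back by listing all whole-read sets whose weighted sum gave the deposited mean (tolerance 3e-13, or 6e-15 of the mean), with group shares within 8% of those the fold change implies. A set was kept where a negative binomial fit, at the dispersion implied by the SE, gave the fold change within 5e-05. A first tolerance of 1e-05 was widened after 1 of 12 other miRNAs, miR-27a-3p, missed it; all 4 members had met it. On simulated data 26 of 26 draws were recovered for each comparison. Simulated fold changes and SEs came from the same fit that the recovery inverts, so the draws cannot show whether it matches the authors' fits. Only 1 draw per comparison stood at the level of miR-181c, for which 322 (bull) and 245 (daughter) read sets matched the mean. The draws therefore say little on miR-181c. By the same steps 553 of 554 miRNAs with a mean of 10 to 100 in both tables were recovered. Libraries take their side from the authors' fold changes of other miRNAs and, outside the shared pair, are not tied to single samples. The tables were normalized separately; to place depths on 1 scale, size factors of the bull fertility table were divided by 1.14, the mean ratio in the shared libraries.

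Named beside the members are the most abundant marker of each list, the 3 miRNAs nearest to miR-181c, and annotated neighbours; miRNAs of the same seed were not searched. Members and lists were chosen with earlier results of these data known. The recovery, the count of groups that do not overlap over these 553, the shares and ratios, the split by depth and the fit without the deep pair were chosen after seeing the data. Other alternatives were another reference distribution, other rows in the adjustment, centring, and leaving out each library. Python 3.11.15, numpy 2.4.6, pandas 2.3.3 and scipy 1.17.1 were used.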

Additional observations from a re-analysis of the deposited data

How the results depend on the processing

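The count of members past the threshold stayed at 0 in both comparisons with p recomputed for every Wald statistic, with a t reference of 4 degrees of freedom, over rows with a mean of at least 10, and with centring on the median miRNA. The smallest adjusted p of a member for daughter fertility (Wald statistic, Benjamini-Hochberg) ranged from 0.289 with centring to 0.963 with the t reference. Centring turned the sign of no member.

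Leaving out each library in turn, with the dispersion held, gave log2 fold changes for bull fertility of -0.35 to 0.52 for miR-181a, 0.48 to 0.86 for miR-181b, -0.33 to 0.44 for miR-181c and 0.12 to 0.78 for miR-181d. For daughter fertility the ranges were -0.70 to -0.19 for miR-181a, -0.43 to 0.0016 for miR-181b, 0.62 to 1.24 for miR-181c and 1.23 to 1.81 for miR-181d. Signs turned in 5 of these fits, for miR-181a and miR-181c with bull and miR-181b with daughter fertility. The unadjusted Wald p ranged from 0.00708 to 0.0671 for miR-181d and from 0.0444 to 0.313 for miR-181c with daughter fertility; for miR-181d it was 0.0619 without the high library shared by both comparisons and 0.0671 without the low library with the fewest miR-181d normalized counts, and for miR-181c 0.0444 without the shared low library. No adjusted p can be had from these fits. The family median ranged from 0.096 to 0.50 for bull and from 0.24 to 0.53 for daughter fertility.

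Without the deep pair of low daughter fertility libraries, miR-181b turned to 0.13, miR-181a stood at -0.12 and the family median at 0.21. Depth and daughter fertility label cannot be told apart in the full comparison. No paired analysis was possible because the tables carry no replicate numbers.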
